A study of Rattus norvegicus with 24 samples.

Results

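Bhlhe40 encodes a basic helix-loop-helix transcriptional repressor, and its transcript was followed in the lungs of rats that had inhaled cigarette smoke, silica or Iraqi sand. It was selected by its gene symbol, with all its probe sets, and because earlier results of these data had shown its response to silica and smoke. It is 1 of 14217 genes with a probe set of a single gene symbol on the array, and it was represented by 1 probe set, 1369415_at (Entrez gene 79431). Because its values in these rats led to its choice, its levels and differences below are a description and carry no test.

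Lung RNA of 24 male Sprague-Dawley rats, 17 weeks old per the labels and 10 to 15 weeks old in the series text, was measured with 1 Affymetrix Rat230_2 array per rat. The 6 groups of 4 rats crossed a nose-only exposure (cigarette smoke or air) with a whole-body exposure (silica, Iraqi sand or air). The tissue was the right caudal lobe, and each array held the RNA of 1 animal. The series text describes 102 rats in groups of 17, of which 24 are analysed here.

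The groups were smoke plus silica, silica (with nose-only air), smoke plus Iraqi sand, Iraqi sand (with nose-only air), smoke (with whole-body air) and air (air by both routes). Smoke was given at 0.48 mg WTPM/L (the unit in the labels), 3 hours a day on 5 days a week. Its duration is 5 weeks in the treatment labels and 6 weeks in the series text. Either particle was given at 1 mg per cubic metre, 18 hours a day on 7 days a week for 2 weeks. All rats, those of the air group included, went through both the nose-only and the whole-body procedure.

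The Bhlhe40 protein, also known as Dec1, Stra13 or Sharp2, binds E-box DNA and represses transcription driven by the CLOCK and BMAL1 proteins, so that it forms part of a feedback loop of the circadian clock together with its paralog Bhlhe41. Its transcription also responds to other signals, among them hypoxia and growth factors. In mouse immune cells it is needed for normal cytokine production by T cells, including that of GM-CSF, the product of Csf2, and it is expressed in macrophages, the cells that take up inhaled particles in the lung.

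The promoters of Bhlhe40 and Bhlhe41 are shown because both genes belong to the clock loop and both were higher in the smoke group than in the air group, in the values that follow. The sequences are RefSeq's, on GRCr8, from 250 bases before to 50 bases after the start of each gene, and run 5′ to 3′ on the gene's own strand. The Bhlhe40 promoter is chr4:143174200-143174499 on the plus strand and the Bhlhe41 promoter is chr4:180569306-180569605 on the minus strand. Capitals mark the E-box CACGTG, which reads the same on both strands.
Bhlhe40 promoter: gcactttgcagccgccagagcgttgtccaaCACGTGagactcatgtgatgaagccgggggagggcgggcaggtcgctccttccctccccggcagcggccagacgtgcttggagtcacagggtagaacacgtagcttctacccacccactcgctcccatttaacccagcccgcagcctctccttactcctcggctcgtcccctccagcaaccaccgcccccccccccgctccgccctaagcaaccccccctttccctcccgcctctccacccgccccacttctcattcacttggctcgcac
Bhlhe41 promoter: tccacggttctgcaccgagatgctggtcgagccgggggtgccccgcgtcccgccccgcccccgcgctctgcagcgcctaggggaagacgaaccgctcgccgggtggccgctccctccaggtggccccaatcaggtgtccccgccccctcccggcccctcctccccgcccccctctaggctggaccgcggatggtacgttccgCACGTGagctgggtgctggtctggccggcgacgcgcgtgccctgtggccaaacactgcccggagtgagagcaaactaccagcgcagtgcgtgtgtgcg

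Each of the promoters held 1 copy of the E-box, at -220 to -215 from the gene start in Bhlhe40 and at -48 to -43 in Bhlhe41. Of 33469 rat promoter windows of the same length, 2148 (6.42%) held CACGTG. Among the promoters found for 15 of the 17 measured clock genes, those of Bhlhe41, Nr1d1 and Tef held it, 3 in all. The shorter motif ACGTG, the core bound by hypoxia-inducible factor, overlaps with the E-box, was searched on both strands and was present in 19.3% of all windows. Outside the E-box it occurred in the Bhlhe40 window at -149 to -145 on the plus strand and at -124 to -120 on the minus strand. The cyclic AMP response element TGACGTCA (1.83% of windows) was in none of the 15 clock promoters, and the D-box TTATGTAA (0.893% of windows) was in 1 of them, that of Per2. These matches describe the letters of the windows and were not tested for binding.

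The arrays were alike in their distribution, with medians between 7.26 and 7.32 on the log2 scale. Lung identity was checked with marker lists. The 10 alveolar type 2 cell markers averaged between 12.58 and 13.11 in the 24 rats, and the individual markers had mean levels of 9.42 to 14.87, in the upper part of the range of the arrays (2.90 to 15.04). The 12 measured heart and striated muscle markers averaged between 5.49 and 8.78, with the highest rat in the air group. Rats 302 (Iraqi sand), 104 (air) and 604 (smoke plus silica) had been set apart in earlier results by heart muscle, airway or proliferation transcripts. The difference between silica and air in Bhlhe40 was 1.71 without these 3 rats, against 1.73 with all rats. RNA integrity numbers, known for 19 rats, lay between 8.1 and 9.8 and had an r of -0.17 with the Bhlhe40 level (rho -0.29). In whole lung, more cells of a type and more RNA per cell cannot be told apart.

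Bhlhe40 was lowest in the air group and was higher in all 5 exposed groups. Over the 24 rats it averaged 8.32 on the log2 scale, at percentile 50.2 of all genes by mean level, and ran from 7.21 to 9.31, while the pooled SD within groups was 0.29. The widest difference from air was that of silica, 1.73 ± 0.20 on the log2 scale (standard error, n = 4 rats a group), or 3.32-fold. Smoke differed from air by 0.94 ± 0.20 (1.92-fold) and Iraqi sand by 0.78 ± 0.20 (1.72-fold).

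In the smoke plus silica group the level was 8.98, 8.26, 8.88 and 9.08 in rats 602 to 605. The silica group had 9.31, 8.94, 9.02 and 8.70 in rats 501 to 504. In both groups 3 or 4 of the 4 rats were at 8.70 or above, and rat 603 was the lowest of the 8.
The smoke plus Iraqi sand group had 8.85, 8.11, 8.73 and 8.68 in rats 402, 404, 405 and 406. The Iraqi sand group had 8.03, 8.23, 8.48 and 7.45 in rats 301, 302, 304 and 305. Rat 305 was the lowest of all 20 exposed rats, and only it among them lay below 8.
The smoke group had 8.14, 8.14, 8.33 and 8.22 in rats 201, 203, 204 and 205. The air group had 7.23, 7.23, 7.21 and 7.39 in rats 102 to 105. The smoke and air groups were the tightest of the 6, and every exposed rat lay above every air rat. The share of all genes in which all exposed rats lie above all air rats was not counted. These values were among those that led to the choice of Bhlhe40.

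**Figure D1:**
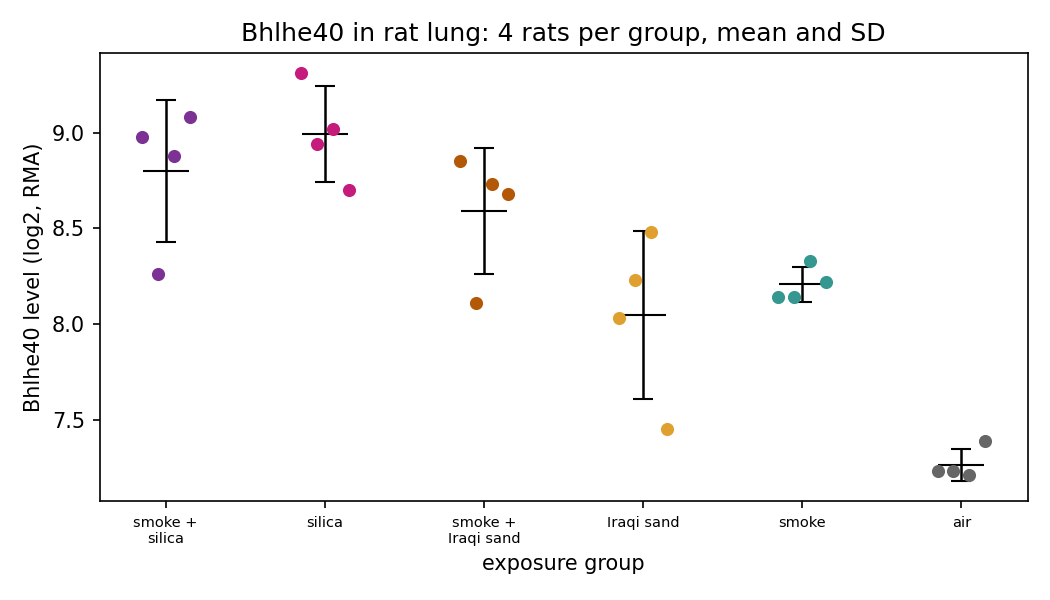
Bhlhe40 level of each rat (points; log2, RMA) by exposure group, with the group mean (horizontal mark) and SD (bar), n = 4 each. The air rats sit between 7.21 and 7.39, and the other 20 rats between 7.45 and 9.31.

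The group means in descending order were 8.99 ± 0.25 (SD, n = 4) in the silica group, 8.80 ± 0.37 in the smoke plus silica group, 8.59 ± 0.33 in the smoke plus Iraqi sand group, 8.21 ± 0.09 in the smoke group, 8.05 ± 0.44 in the Iraqi sand group and 7.26 ± 0.08 in the air group. Neighbours in this order overlapped in their values and lay 0.16 to 0.38 apart, except Iraqi sand and air, which lay 0.78 apart without overlap. The first 3 groups, with means from 8.59 to 8.99, were therefore not separated from one another, nor were smoke and Iraqi sand.

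The silica, Iraqi sand and smoke groups were each compared with the same 4 air rats, so these 3 differences share the air group's values. In the comparison of silica with air, 4 of 14217 genes (0.0281%) had a difference at least as large as that of Bhlhe40, itself included. The corresponding figure was 21 genes (0.148%) for Iraqi sand and 72 genes (0.506%) for smoke. Groups without overlap, the exposed rats being higher, were found for 3.24% of all genes with silica, 3.4% with Iraqi sand and 4.86% with smoke. Bhlhe40 was among them in all 3 comparisons, which were among the values that led to its choice.

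Adding an exposure to another gave smaller differences than adding it to air. Smoke plus silica lay 1.54 ± 0.20 above air (2.9-fold) and smoke plus Iraqi sand 1.33 ± 0.20 above air (2.51-fold). Both pairs were again without overlap, as were 7.64% and 5.59% of all genes in the higher direction. Silica under smoke differed from smoke by 0.59 ± 0.20, with overlap, against 1.73 ± 0.20 for silica in air. Smoke under silica differed from silica by -0.19 ± 0.20, with overlap, against 0.94 ± 0.20 for smoke in air. The smoke by silica interaction, which is the difference between these differences, was -1.14 ± 0.28 for Bhlhe40. Over all genes the limma test of that interaction called 0 of 14217 at an adjusted p under 0.05. An unadjusted p under 0.05 was found for 318 genes, fewer than that threshold passes on average where no gene differs. In these group means, which carry no test, Bhlhe40 under both exposures was at about the level of silica alone and not at the sum of the single differences.

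For Iraqi sand the pattern on the log2 scale was closer to a sum. Smoke under Iraqi sand differed from Iraqi sand by 0.55 ± 0.20 and Iraqi sand under smoke differed from smoke by 0.38 ± 0.20, both with overlap. The smoke by Iraqi sand interaction was -0.40 ± 0.28. The particles differed from each other in the absence of smoke, with Iraqi sand 0.95 lower than silica on the log2 scale (difference -0.95 ± 0.20) and no overlap, as in 1.21% of all genes in the lower direction. Under smoke the same difference was -0.21 ± 0.20, with overlap. Averaged over air and smoke, silica differed by 1.16 ± 0.14 and Iraqi sand by 0.58 ± 0.14, and smoke averaged over the 3 particle conditions differed by 0.43 ± 0.11.

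Bhlhe41, the paralog that shares the repressor function, ordered the rats differently. Its level was 10.46, 10.38, 10.40 and 10.54 in the smoke plus silica rats, against 10.00, 9.72, 9.63 and 9.58 in the silica rats. It was 10.23, 10.56, 10.15 and 10.21 in the smoke plus Iraqi sand rats, against 9.21, 9.55, 9.99 and 9.70 in the Iraqi sand rats. It was 10.32, 10.05, 10.14 and 10.42 in the smoke rats, against 8.98, 9.13, 9.68 and 9.01 in the air rats. All 12 smoke rats lay above all 12 rats without smoke, a separation found in the higher direction for 0.0703% of all genes.

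Bhlhe41 rose with smoke averaged over the particle conditions, by 0.81 ± 0.09 (limma, adjusted p = 2.23e-05), and with smoke in air, by 1.03 ± 0.15 (limma, adjusted p = 0.00146). With silica in air its difference was 0.53 ± 0.15 and did not pass (limma, adjusted p = 0.394), while Bhlhe40 differed by 1.73 ± 0.20 between the same rats. In the smoke contrast averaged over particles the order of the paralogs was the other way, 0.43 ± 0.11 for Bhlhe40 and 0.81 ± 0.09 for Bhlhe41. That average includes smoke under silica, where Bhlhe40 differed by -0.19 ± 0.20. With smoke in air Bhlhe40 differed by 0.94 ± 0.20, close to the 1.03 ± 0.15 of Bhlhe41. The difference between the paralogs' responses was not tested. Their levels had an r of 0.58 over the 24 rats.

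Other members of the clock loop were called with smoke. None was called with silica in the limma test of all 24 rats. So few genes of any kind were called with silica that a count of 0 does not set the clock list apart. The difference between the smoke and silica responses of the clock genes was not tested. Of 19 listed clock genes besides Bhlhe40, 17 were measured. With silica in air 0 of 17 were called by limma, where 0.141% of all genes were called, and 0 of 17 were called with silica under smoke, where 0.0141% were called. With silica averaged over air and smoke the count was again 0 of 17, beside 0.345% of all genes. Array quality weights raised these counts to 2, 1 and 5. The median difference of the 17 genes with silica in air was 0.10, beside -0.01 over all genes. Rora differed more with silica in air (0.73 ± 0.21, not called) than with smoke in air (0.01 ± 0.21). Its second and dimmer probe set differed by 0.02 ± 0.11 with silica in air. Iraqi sand against silica, both without smoke, called 1 of 17 clock genes, Rora (-1.33 ± 0.21), beside 0.274% of all genes. That call was lost on the 19 arrays with an RNA integrity number and in the fit on the compared arrays alone.

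With smoke in air 4 of 17 clock genes were called, beside 0.893% of all genes. Per2 and Cry1, which encode repressors of the CLOCK and BMAL1 proteins, rose by 1.21 ± 0.22 (limma, adjusted p = 0.00668) and 0.88 ± 0.16 (limma, adjusted p = 0.00817), as did Bhlhe41. Npas2, a partner of BMAL1 in place of CLOCK, fell by 1.36 on the log2 scale (standard error 0.30, limma, adjusted p = 0.031). The call of Npas2 was lost when any one of rats 102, 103, 201, 204 or 205 was left out, with an adjusted p of up to 0.14. It was also lost in the fit on the smoke and air arrays alone. The second Per2 probe set, at a mean level of 8.44 beside 9.95, differed by 0.09 ± 0.07 with smoke in air.

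Cry1 was at 9.52, 9.37, 9.48 and 9.48 in the smoke rats, against 8.54, 8.36, 8.81 and 8.62 in the air rats. In the silica rats it was at 8.98, 8.68, 8.36 and 9.13, so that silica overlapped with air and smoke did not. Per2 was at 10.46, 10.38, 10.49 and 10.45 in the smoke rats, against 9.02, 8.64, 9.91 and 9.37 in the air rats. The 4 smoke rats lay within 10.38 to 10.49, whereas the air rats were spread over more than a log2 unit.

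Averaged over the particle conditions, smoke moved 8 of 17 clock genes, 4 up and 4 down, beside 6.39% of all genes. Nr1d1, which encodes the repressor REV-ERB alpha, fell by 1.12 on the log2 scale (standard error 0.12, limma, adjusted p = 2.23e-05). Npas2 fell by 0.92 (limma, adjusted p = 0.00314), Per1 by 0.43 (limma, adjusted p = 0.0294) and Bmal1, the partner of CLOCK, by 0.55 (limma, adjusted p = 0.0432). Cry1 rose by 0.75 ± 0.09 (limma, adjusted p = 7.22e-05), Per2 by 0.85 ± 0.13 (limma, adjusted p = 0.000344) and Rora, an activator of Bmal1, by 0.46 ± 0.12 (limma, adjusted p = 0.0296). The remaining called gene was Bhlhe41. The second Per2 probe set differed by 0.11 ± 0.04 with smoke averaged over particles, far less than the one used. The smoke difference of Rora was 0.01 ± 0.21 in air, 1.52 ± 0.21 under Iraqi sand and -0.15 ± 0.21 under silica. Its difference with silica averaged over air and smoke was 0.65 ± 0.15, without a call. The calls of Per1, Rora and Bmal1 were lost on leaving out single rats: 6 different rats for Per1 (103, 204, 406, 502, 504 and 603), 5 for Rora (102, 201, 406, 602 and 603) and 18 for Bmal1, with adjusted p-values of up to 0.0579, 0.0569 and 0.0793. Those of Per1 and Rora were also lost on the 19 arrays with an RNA integrity number.

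Smoke plus silica against air moved 6 of 17 clock genes, beside 3.77% of all genes: Bhlhe41, Per2 and Cry1 rose and Nr1d1, Npas2 and Per1 fell. The call of Npas2 was lost without rat 102, 103, 604 or 605 (adjusted p up to 0.0907, limma), that of Per1 without rat 603 (0.0512) or on the 19 arrays, and that of Per2 in the fit on the compared arrays alone. Nr1d1 was at 8.55, 8.97, 7.75 and 8.16 in the smoke plus silica rats, against 9.73, 9.20, 10.20 and 9.87 in the air rats. In the silica rats Nr1d1 was at 9.76, 10.01, 10.00 and 9.40, within the range of the air group. Smoke under silica against silica alone moved 1 of 17 clock genes, Nr1d1, beside 0.00703% of all genes, by -1.44 ± 0.22 (limma, adjusted p = 0.0181). That call was lost without rat 502, 503 or 604, with an adjusted p of up to 0.151, on the 19 arrays and in the fit on the compared arrays alone.

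Smoke under Iraqi sand against Iraqi sand moved 4 of 17 clock genes, beside 1.29% of all genes. Cry1 rose by 0.72 ± 0.16 (limma, adjusted p = 0.0334), Bhlhe41 by 0.67 ± 0.15 (limma, adjusted p = 0.0352) and Rora by 1.52 ± 0.21 (limma, adjusted p = 0.00254), while Nr1d1 fell by 1.41 (limma, adjusted p = 0.00293). The Cry1 call was lost without rat 301, 304, 402, 404, 405 or 406 and the Bhlhe41 call without rat 301, 302, 402, 404, 405 or 406, with adjusted p-values of up to 0.0878 and 0.0858. All 4 calls were lost in the fit on the compared arrays alone, those of Cry1 and Bhlhe41 on the 19 arrays too, and that of Rora with the integrity number as a covariate. The second probe set of Rora, at a mean level of 5.52 beside 6.85, differed by 0.05 ± 0.11 with smoke under Iraqi sand. With smoke averaged over particles it differed by -0.05 ± 0.06, so the probe sets of Rora disagree. The time of day at which the lungs were taken, with which clock transcripts change, is not given in the labels used here, and its part in these differences was not tested.

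**Figure D2:**
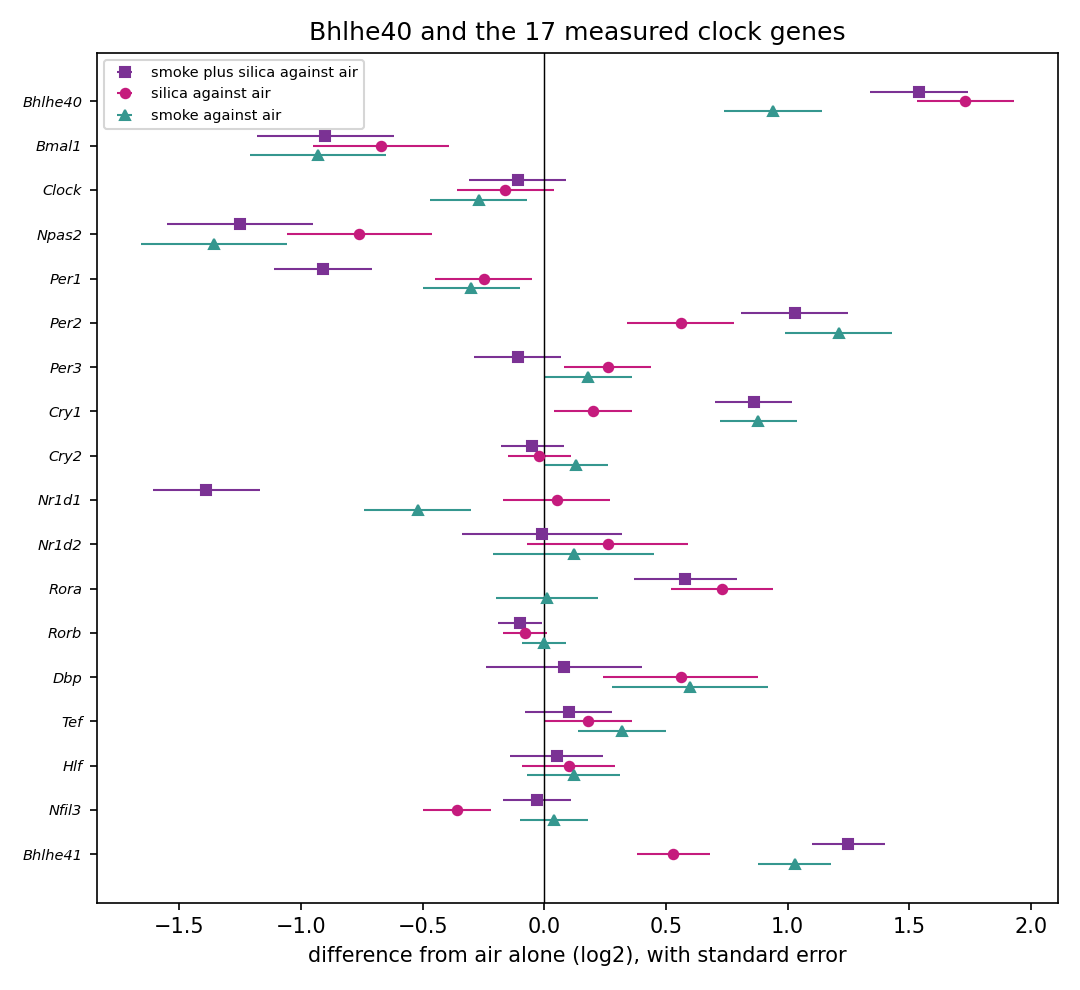
Difference from air on the log2 scale (points, with the standard error) for Bhlhe40 and the 17 measured clock genes, in smoke plus silica (squares), silica (circles) and smoke (triangles). Bhlhe40 has its widest difference with silica, 1.73, and differs by 0.94 with smoke. Bhlhe41, Per2 and Cry1 differ by 1.03, 1.21 and 0.88 with smoke and by 0.53, 0.56 and 0.20 with silica. Rora differs by 0.01 with smoke and by 0.73 with silica.

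**Figure D3:**
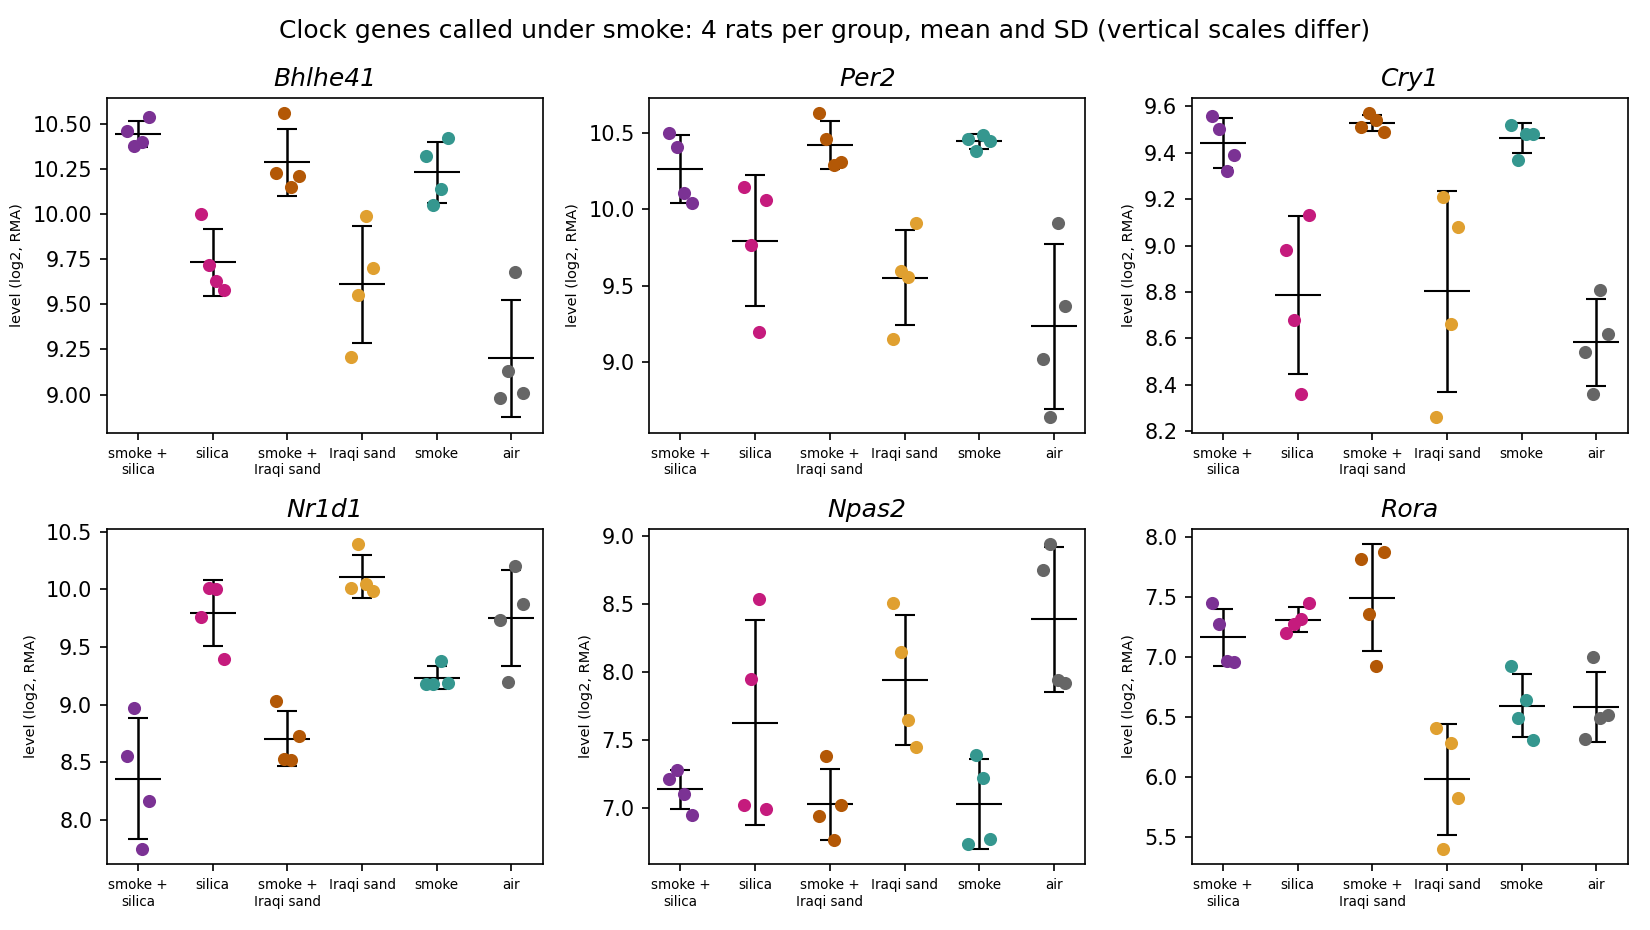
Level of 6 clock genes in each rat (points; log2, RMA) by exposure group, with the group mean and SD, n = 4 each; vertical scales differ between panels. For Bhlhe41 the 12 smoke rats lie at 10.05 or above and the 12 rats without smoke at 10.00 or below.

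Among genes known from mouse to be regulated by Bhlhe40, 10 of 11 listed were measured, and 1 was called with silica in air, beside 0.141% of all genes. Csf2, which encodes the growth factor GM-CSF, was at 8.49, 8.12, 8.08 and 7.98 in the silica rats, against 7.65, 7.55, 7.34 and 7.49 in the air rats. All silica rats lay above all air rats, and the difference was 0.66 ± 0.12 (limma, adjusted p = 0.0148). Csf2 also rose with smoke in air, by 0.62 ± 0.12 (limma, adjusted p = 0.00843), and with smoke plus silica against air, by 0.62 ± 0.12 (limma, adjusted p = 0.00336). The silica call was lost without rat 104, 105 or 501, with an adjusted p of up to 0.0904. The second and dimmer Csf2 probe set, at a mean level of 6.17, differed by 0.06 ± 0.10 with silica in air and by 0.09 ± 0.10 with smoke in air, and all 3 calls were lost when the probe sets were averaged and on the 19 arrays. Smoke in air moved 2 of 10 genes of this list, Csf2 and Bhlhe41, beside 0.893% of all genes. Smoke plus silica against air moved 3 of 10, these and Per1, beside 3.77% of all genes.

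The other repressors of the same protein family (bHLH-Orange, which includes Bhlhe41 and the Hes and Hey genes) numbered 9 measured, of which 0 were called with silica in air, beside 0.141% of all genes. Averaged over particles smoke moved 3 of 9, beside 6.39% of all genes, Bhlhe41 up and Hes1 and Hes6, which act in Notch signalling and differentiation, down by 0.29 (limma, adjusted p = 0.00271) and 0.25 (limma, adjusted p = 0.00956). The Hes6 call was lost on the 19 arrays. Of 20 genes induced by hypoxia-inducible factor, which is known to induce Bhlhe40, 0 were called with silica in air, where 0.141% of all genes were called, so that a count of 0 does not set the list apart, and its median difference was -0.02 beside -0.01 over all genes. Smoke in air moved 1 of the 20, beside 0.893% of all genes, the glucose transporter gene Slc2a1, which rose by 0.67 ± 0.15 (limma, adjusted p = 0.0325). That call was lost without rat 102, 103, 104, 105, 201, 203 or 204, with an adjusted p of up to 0.155. Averaged over particles smoke moved 1 of the 20 up and 1 down, beside 6.39% of all genes. Slc2a1 rose by 0.41 ± 0.09 (limma, adjusted p = 0.00764), and Egln1, an oxygen sensor gene, fell by 0.21 (limma, adjusted p = 0.0154). These calls of Slc2a1 and Egln1 were lost on the 19 arrays. That of Egln1 was also lost when its probe sets were averaged (-0.11 ± 0.05), its second probe set differing by -0.01 ± 0.06.

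Of 19 measured immediate early genes, which respond first to a stimulus, 1 was called with silica in air, beside 0.141% of all genes. Egr2, a zinc finger transcription factor gene, was at 8.75, 8.36, 8.18 and 8.22 in the silica rats, against 7.21, 7.78, 7.59 and 7.19 in the air rats. The groups did not overlap, and the difference was 0.94 ± 0.16 (limma, adjusted p = 0.0126). The call was lost without rat 102, 105 or 501, with an adjusted p of up to 0.0708, and on the 19 arrays, and the second Egr2 probe set differed by 0.41 ± 0.10. Egr2 also rose in smoke plus silica against air, by 0.99 ± 0.16 (limma, adjusted p = 0.00109). Fos, the archetype of the class, differed by -0.06 ± 0.42 with silica in air, and the median of the 19 was -0.10. Averaged over particles smoke moved 3 of the 19, beside 6.39% of all genes: Myc rose by 0.29 ± 0.07 (limma, adjusted p = 0.0163), and Klf4 and Zfp36 fell by 0.30 (limma, adjusted p = 0.0042) and 0.33 (limma, adjusted p = 0.0223). The calls of Myc and Zfp36 were lost on the 19 arrays, and that of Klf4 with the integrity number as a covariate.

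Of 11 measured genes of the glucocorticoid and metallothionein response, a further setting in which Per1 is induced, 0 were called with silica in air, beside 0.141% of all genes, and 0 with smoke in air, beside 0.893%. Averaged over particles smoke moved 4 of 11, beside 6.39% of all genes. Mt2A, a metal-binding protein gene, and Sgk1, a kinase gene, rose, Sgk1 by 0.23 ± 0.06 (limma, adjusted p = 0.0277), while Errfi1, an inhibitor of the EGF receptor, and Per1 fell, Errfi1 by 0.32 (limma, adjusted p = 0.0301). The Sgk1 and Errfi1 calls were lost on the 19 arrays and on leaving out single rats, with adjusted p-values of up to 0.0568 and 0.0596.

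The genes closest to Bhlhe40 in level across the rats were named by Pearson's r over the 24 rats, which share the same group structure, so that r describes the likeness of the group pattern more than that of single rats. The 10 highest were Ddhd1 (0.81), Egr2 (0.80), Kdsr (0.79), Arid5b (0.79), Sema4a (0.78), M6pr (0.77), Ccl3 (0.76), Tor1aip1 (0.75), Csf2 (0.75) and Ociad1 (0.75). The 1st to the 99th percentile of all genes lay between -0.52 and 0.56. Ranked by Spearman's rho, 6 of the 10 stayed among the first 10, and 7 did without rats 302, 104 and 604. Csf2 had a rho of 0.51, beside its r of 0.75.

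Ddhd1, a phospholipase gene, was at 9.70, 9.27, 9.35 and 9.40 in the silica rats, against 9.03, 8.86, 8.66 and 8.67 in the air rats. Arid5b, a chromatin-binding protein gene, was at 7.85, 7.82, 7.84 and 8.07 in the silica rats and at 7.29, 7.25, 7.29 and 7.43 in the smoke rats, against 7.40, 7.35, 7.35 and 7.24 in the air rats. Arid5b thus resembled Bhlhe40 in its silica values and overlapped with air under smoke, where Bhlhe40 did not. Ccl3, a chemokine gene, averaged 8.95 ± 0.32 in the silica rats and 8.83 ± 0.19 in the smoke rats, against 8.03 ± 0.15 in the air rats (SD, n = 4 each).

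The lowest r values were those of Trim39 (-0.75), Il17rc (-0.71), Hyal3 (-0.71), Rab14 (-0.69) and Arl3 (-0.69). Some other probe sets of Rab14 and the second of Hyal3 disagree with the one used. The Rab14 probe set with the highest mean differed by -0.33 ± 0.08 with silica in air, whereas 3 others differed by 0.65 ± 0.10, 0.40 ± 0.12 and 0.49 ± 0.23. The dimmest Rab14 probe set, at a mean level of 5.57, differed by -0.39 ± 0.28. Hyal3 differed by -0.38 ± 0.12 and its second probe set by 0.03 ± 0.07. Trim39, a ubiquitin ligase gene, was at 7.97, 8.20, 8.02 and 7.96 in the silica rats, against 8.27, 8.25, 8.31 and 8.26 in the air rats. Its whole range over the 24 rats was a fraction of a log2 unit, so that it followed the inverse of Bhlhe40 on a much smaller scale. Over the deviations of each rat from its group mean the order of genes was another one. Syndig1 (0.76), Cdc23 (0.74), LOC100910973 (0.73), S100g (0.68), Rab26 (0.67), Zfp420 (0.67), Ndufb4 (0.67), Drp2 (0.64), Tekt5l1 (0.64) and Nlrc5 (0.63) led it, and 0 of the 10 genes with the highest r over the rats were among them.

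**Figure D4:**
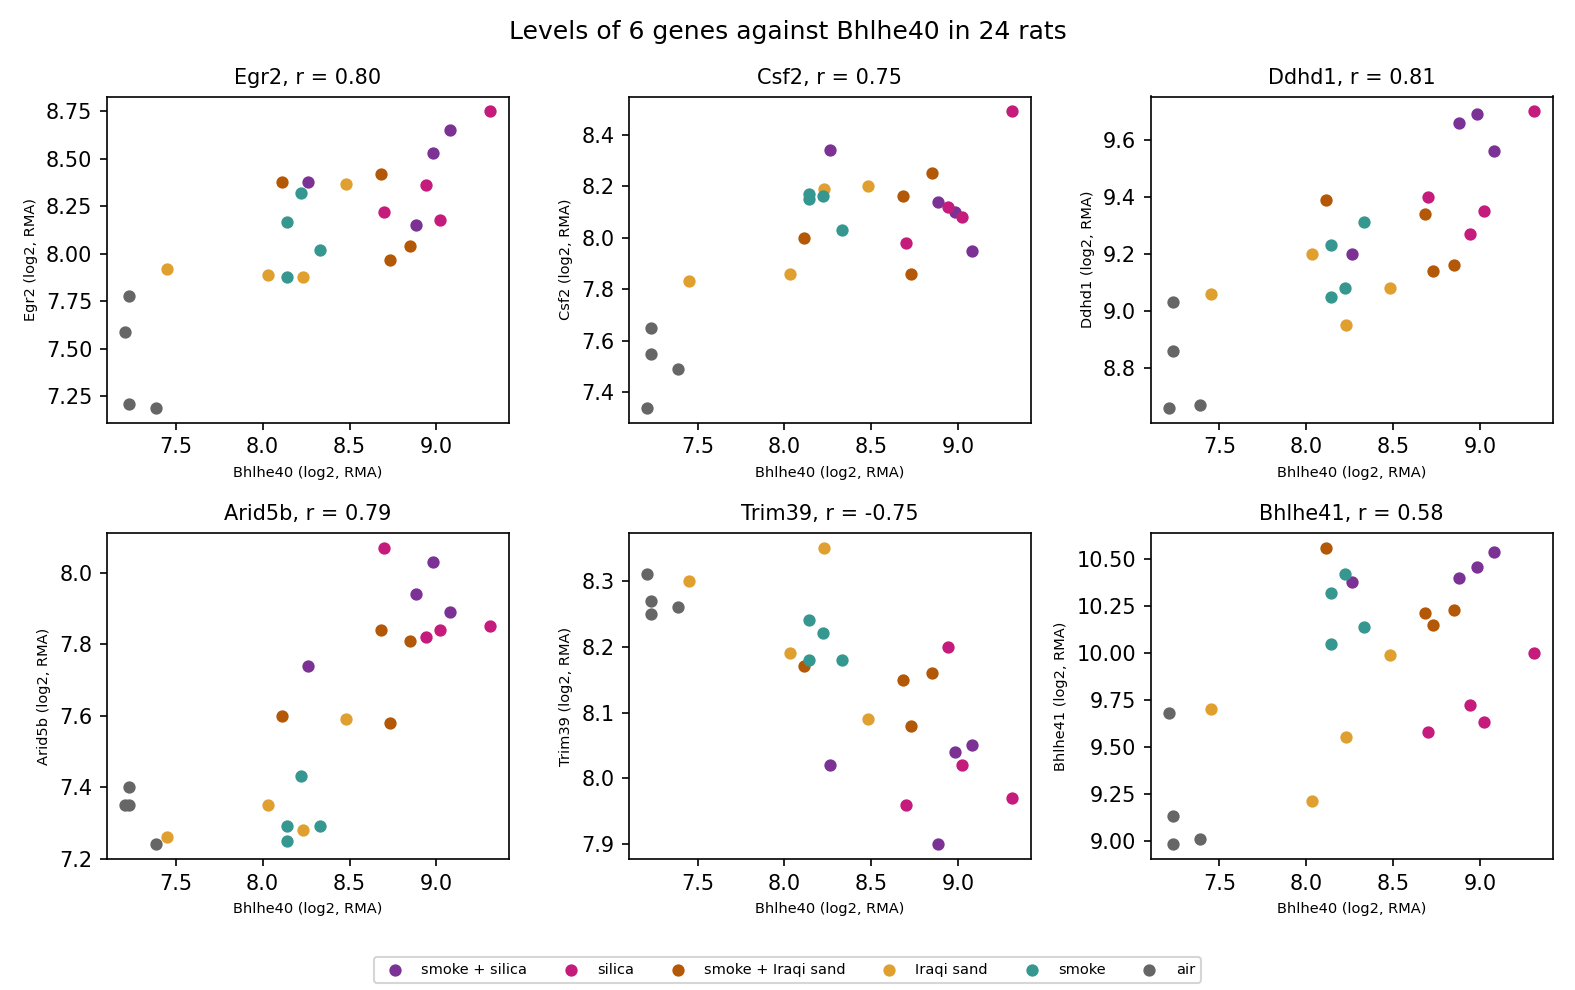
Levels of 6 genes (vertical axes; log2, RMA) against Bhlhe40 (horizontal axes; log2, RMA) in 24 rats, coloured by exposure group, with Pearson's r above each panel. The 4 air rats form the low end in Egr2, Csf2 and Ddhd1 and part of the high end in Trim39, and in Bhlhe41 the silica rats lie below the smoke plus silica rats.

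Macrophage markers were called with smoke in air. None was called with silica in air or with smoke under silica. So few genes of any kind were called in these 2 comparisons that a count of 0 does not set the list apart. The mean of 16 measured alveolar macrophage and phagocyte markers was 10.70 to 11.46 in the smoke plus silica rats, 10.08 to 10.34 in the silica rats, 10.23 to 10.92 in the smoke plus Iraqi sand rats, 9.91 to 10.34 in the Iraqi sand rats, 10.48 to 10.93 in the smoke rats and 9.74 to 10.09 in the air rats. With silica in air 0 of 16 were called (median difference 0.30), beside 0.141% of all genes. With smoke in air 8 of 16 were called (7 up and 1 down, median 0.74), beside 0.893%, and with smoke plus silica against air 11 of 16, all up (median 1.02), beside 3.77%. With smoke under silica against silica 0 of 16 were called (median 0.65), beside 0.00703% of all genes. The list mean averaged 10.22 in the silica rats and 10.62 in the smoke rats, against 9.88 in the air rats. It had an r of 0.50 with Bhlhe40 over the 24 rats and of -0.06 over the deviations from group means. Of the other marker lists, endothelial markers had an r of -0.52 with Bhlhe40 over the rats (rho -0.50) and of -0.10 over the deviations. Over the deviations T and NK cell markers had an r of 0.47 and alveolar type 2 cell markers one of 0.44, with -0.29 and 0.36 over the rats. The part of macrophage or endothelial content in the Bhlhe40 differences was not tested.

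T and NK cell markers, 17 measured, averaged 8.07 to 8.24 in the silica rats and 7.61 to 8.21 in the smoke rats, against 8.36 to 8.52 in the air rats. With silica in air 0 of 17 were called (median difference -0.30), beside 0.141% of all genes. Averaged over particles smoke lowered 8 of 17, among them Cd3d, Cd3e and Cd3g of the T cell receptor complex, beside 6.39% of all genes. The Cd3d call was lost with the integrity number as a covariate, and those of Cd2 and Cd5 on the 19 arrays with or without it. The call of Zap70 was kept in every setting. Neutrophil markers, 11 measured, averaged 7.72 ± 0.22 in the silica rats and 8.59 ± 0.88 in the smoke rats, where the highest rat was at 9.89, against 7.68 ± 0.27 in the air rats (SD, n = 4 each). With silica in air 0 of 11 were called, beside 0.141% of all genes. With smoke in air 1 of 11 was called, the chemokine receptor gene Cxcr1, beside 0.893%, and averaged over particles 2 of 11, Cxcr1 and the calcium-binding protein gene S100a9, all higher with smoke, beside 6.39%. The part of these cells in the Bhlhe40 differences was not tested.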

How the data were processed

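Lung RNA of 24 rats was measured on 24 Affymetrix Rat230_2 arrays, 4 rats in each of 6 groups, taken from the sample titles. The authors deposited log2 values. RMA is named in the submitters' processing notes, and its version is not given in the sources used here. RMA subtracts background, forces the arrays to 1 distribution and combines the probes of each probe set. It would remove a change shared by most genes and compresses the changes of dim probe sets. The right caudal lobe was kept in RNAlater, and RNA was extracted with Trizol and cleaned on a Qiagen column, per the labels' protocols. Arrays hold no counts, so their number limits the precision.

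Of 31099 probe sets, 57 controls were left out. Of the rest 20826 had 1 gene symbol, 436 several and 9780 none in the platform annotation, and genes were named only through the first kind. The probe set with the highest mean represented each of 14217 genes. All 24 arrays entered 1 limma 3.58.1 model of the 6 group means (lmFit and eBayes, R 4.3.3), with 18 residual degrees of freedom. A gene was called at a Benjamini-Hochberg adjusted p under 0.05 over all genes within 1 of 16 comparisons, two-sided. The p-values measure the spread between separate rats. The fit was tested on simulated data with 200 changed genes. A batch, scan date or hour of killing was not in the labels used here.

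Bhlhe40, the gene lists and the alternatives were chosen with earlier results of these data known. The named genes were Bhlhe40 and Bhlhe41, each clock gene called in any comparison, the 10 highest and 5 lowest r with Bhlhe40, the 10 highest r of the deviations, and up to 4 members of each other list by the largest moderated t with silica in air, smoke under silica or smoke averaged. Fos, Mt2A, Cd3e and Cd3g fall outside that rule and were named after their values were seen. Promoters were read from RefSeq's GRCr8 sequences, and the protein sequences were not used here.

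The alternatives were averaging the probe sets of a gene, repeated quantile normalization, centring on the median, array quality weights, a covariate for RNA integrity in the 19 arrays that have it, leaving out each rat or rats 302, 104 and 604, a trended robust eBayes, a filter on dim genes, and fits on only the groups compared. A fit on the same 19 arrays without the covariate was added after seeing the data.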

Additional observations from a re-analysis of the deposited data

Results flagged for a closer look

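In 48 genes and 288 groups of 4 rats, 17 (5.9%) had 1 rat far from the other 3, where chance gives about 1 in 20 groups (5%), so the share is near that of chance. In Bhlhe40 the air rat 105 was at 7.39, with the other air rats at 7.21 to 7.23, a gap small beside the difference of any exposed group. Rats of the silica group stood apart in Arid5b (rat 504 at 8.07, the others at 7.82 to 7.85), M6pr (rat 502 at 11.15, the others at 11.22) and S100g (rat 504 at 8.92, the others at 11.57 to 12.10). In the smoke plus Iraqi sand group they did so in S100g (rat 404 at 8.27, the others at 10.70 to 11.14), Hey1 (rat 406 at 10.29, the others at 10.96 to 11.06) and Trim39 (rat 405 at 8.08, the others at 8.15 to 8.17). In the smoke group rat 204 was at 8.03 in Csf2, with the others at 8.15 to 8.17, and at 9.38 in Nr1d1, with the others at 9.18 to 9.19. In the Iraqi sand group rat 302 was at 10.03 in Egln1 (the others 9.51 to 9.56), at 9.46 in Hes6 (8.92 to 9.01) and at 10.39 in Nr1d1 (9.99 to 10.05), and rat 304 was at 8.37 in Egr2 (7.88 to 7.92). In the smoke plus silica group rat 604 was at 8.80 in Hes6, with the others at 8.58 to 8.61. In the air group rat 104 was at 7.50 in Kdsr (7.76 to 7.78), at 7.89 in Nlrc5 (7.33 to 7.42) and at 11.14 in Sgk1 (10.83 to 10.86). Rats 504 and 404, far from the others in S100g, were also the lowest of their groups in Bhlhe40, at 8.70 and 8.11, which is built into the choice of S100g by its r with Bhlhe40 over the deviations from group means.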

How the results depend on the processing

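The 14 Bhlhe40 differences kept their sign and moved by less than 1 within-group SD in all 476 recomputed values. The smoke by silica and smoke by Iraqi sand interactions of Bhlhe40 were not recomputed. Silica against air ranged from 1.62 (without rat 501) to 1.83 (without rat 504), smoke against air from 0.88 to 0.98, and Iraqi sand against air from 0.64 (without rat 304) to 0.98 (without rat 305). The difference of smoke under Iraqi sand, 0.55, was 0.35 without rat 305, that of smoke under silica, -0.19, was -0.01 without rat 603, that of Iraqi sand against silica under smoke, -0.21, ranged from -0.39 without rat 603 to -0.05 without rat 404, and that of smoke averaged was 0.37 to 0.49. Bhlhe40 has 1 probe set, so no other could be tried. Counts of called clock genes depended on the setting, and the cause was not tested except where fewer arrays or genes were used. Array quality weights gave 2 with silica in air (0 as reported), 1 with silica under smoke (0), 7 with smoke in air (4), 4 with smoke under silica (1) and 5 with silica averaged (0). The 19 arrays with an RNA integrity number gave 1 with smoke under Iraqi sand with the covariate and 2 without it (4 as reported), and 0 with smoke under silica in either fit (1). Fits on only the arrays compared gave 0 with smoke under Iraqi sand, 0 with smoke under silica and 1 with silica averaged. The filter on dim genes, which removes dim clock genes too, gave 5 with smoke averaged (8). For silica averaged, the mean of the probe sets gave 1 and leaving out rats 302, 104 and 604 gave 2. Leaving out single rats gave 3 to 5 with smoke in air, 2 to 5 with smoke under Iraqi sand (below 4 by over 1.5 times without rat 301, 402, 404, 405 or 406), 0 to 2 with smoke under silica (0 without rat 502, 503 or 604, and 2 without rat 302), 5 to 8 with smoke averaged (lowest without rat 406 or 603), 5 to 7 with smoke plus silica against air, and 0 to 2 with silica averaged (2 without rat 302). Over all genes, the 20 called with silica in air ranged from 8 (without rat 105) to 42 (without rat 302) over single rats and from 0 to 80 over the other settings, the 127 with smoke in air from 46 to 269 and from 42 to 1119, and the 908 with smoke averaged from 586 to 1463 and from 210 to 2651. No result reversed its direction. No paired analysis was possible because the groups share no replicate numbers, each rat having its own. With 4 arrays a group, the precision is that of 4 rats, and RMA leaves changes of dim probe sets smaller than they are.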
